A study of Mus musculus with 2 samples.

Results

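The 47 genes described here are the mouse mitochondrial solute carriers, taken as every protein-coding gene of the GENCODE M21 annotation whose symbol starts with Slc25a. They are 47 of 55536 annotated genes and of 22015 nuclear protein-coding genes, and no expression value was used to choose them. Total RNA was sequenced from left cerebral cortex; the animals were B6CASTF1/J males, a first-generation hybrid of B6 and CAST parents, at 18 to 20 months of age. There was 1 group of 2 libraries, labelled biological replicates 2 and 1 below, each made from 300 ng of RNA with ERCC spike-in RNAs added, and there was no second condition. The labels give both libraries the same donor identifier and separate biosample identifiers, so whether the RNA came from separate animals is not known and the spread between the libraries may be technical.

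Carriers of this family sit mostly in the inner mitochondrial membrane, which small charged molecules cannot cross unaided. Each carrier swaps or admits a narrow set of solutes: ADP for ATP, phosphate, amino acids, organic acids, nucleotides, cofactors or iron. In brain the family is best known for feeding oxidative phosphorylation and for the malate-aspartate shuttle and glutamate transport that link neurons and astrocytes. The label holds for most members but not for every one: Slc25a17 is a peroxisomal carrier and Slc25a46 belongs to the outer membrane. Related carriers with other symbols (Ucp1, Ucp2, Ucp3, Mtch1 and Mtch2) fall outside the rule.

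Levels are given in TPM, an abundance normalized for transcript length and library depth that the authors deposited. A value is followed by its deposited credibility interval where the comparison rests on it, whose level the sources used here do not give. The interval belongs to the posterior mean of the TPM, so that for a few genes, Slc25a4 among them, the TPM itself lies outside it. Detection means at least 1 TPM in each library.

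Sequence sets a limit on how well close relatives can be told apart, and it also separates the transcript forms described below. Sequences were read from the GENCODE M21 transcripts on GRCm38 and are written 5′ to 3′ on the strand of the gene. Slc25a4 and Slc25a5, the main ADP/ATP carriers, have coding sequences of 894 bases each that were identical at 77.4% of aligned bases, and their transcripts share no run longer than 20 bases. Exon 3 of each, at chr8:46208398-46208538 on the minus strand and chrX:36797736-36797876 on the plus strand, is shown because both copies have 141 bases and differ at 31 positions, in capitals.
Slc25a4 exon 3: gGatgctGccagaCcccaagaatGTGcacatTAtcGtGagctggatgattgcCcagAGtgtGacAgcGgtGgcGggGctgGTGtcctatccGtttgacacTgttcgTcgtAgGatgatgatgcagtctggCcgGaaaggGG
Slc25a5 exon 3: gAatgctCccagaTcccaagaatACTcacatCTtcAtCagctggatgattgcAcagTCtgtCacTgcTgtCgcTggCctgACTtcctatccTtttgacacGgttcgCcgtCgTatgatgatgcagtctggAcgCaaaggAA

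The phosphate carrier gene Slc25a3 has a pair of alternative coding exons on the minus strand of chromosome 10, which its transcripts use one at a time. The upstream exon, chr10:91122207-91122331, is 125 bases long and lies in transcripts Slc25a3-202 and Slc25a3-206; the downstream exon, chr10:91121922-91122043, is 122 bases long and lies in Slc25a3-201, Slc25a3-203 and Slc25a3-207. The form with the upstream exon is known from heart and skeletal muscle, and the form with the downstream exon from most tissues. They are shown because the choice between them is reported below. The exons were identical at 77 of 122 aligned bases (63.1%), and capitals mark bases that differ or have no partner.
Slc25a3 upstream exon: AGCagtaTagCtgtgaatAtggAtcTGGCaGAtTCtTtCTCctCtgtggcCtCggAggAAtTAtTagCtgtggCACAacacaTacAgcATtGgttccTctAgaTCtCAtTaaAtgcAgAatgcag
Slc25a3 downstream exon: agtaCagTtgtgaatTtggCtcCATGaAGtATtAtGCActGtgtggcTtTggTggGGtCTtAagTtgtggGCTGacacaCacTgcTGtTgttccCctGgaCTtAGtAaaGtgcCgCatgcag

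Among the members, 38 of 47 (80.9%) were detected, against 58.5% of nuclear protein-coding genes. They held 0.331% of nuclear protein-coding TPM in replicate 2 and 0.326% in replicate 1 (mean 0.328 ± 0.0033%, SD, n = 2). The sum was uneven: the 5 members with a mean of 100 TPM or more, Slc25a3, Slc25a4, Slc25a23, Slc25a5 and Slc25a22, made up 57.7 ± 1.14% of the family's TPM (SD, n = 2). By mean level, 18 members reached 20 TPM, 25 reached 10 TPM, 40 reached 1 TPM and 7 did not. The median detected member stood at 17.3 TPM in replicate 2 and 19.3 TPM in replicate 1, near the median of all detected nuclear protein-coding genes at 15.4 and 16.8 TPM.

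**Figure D1:**
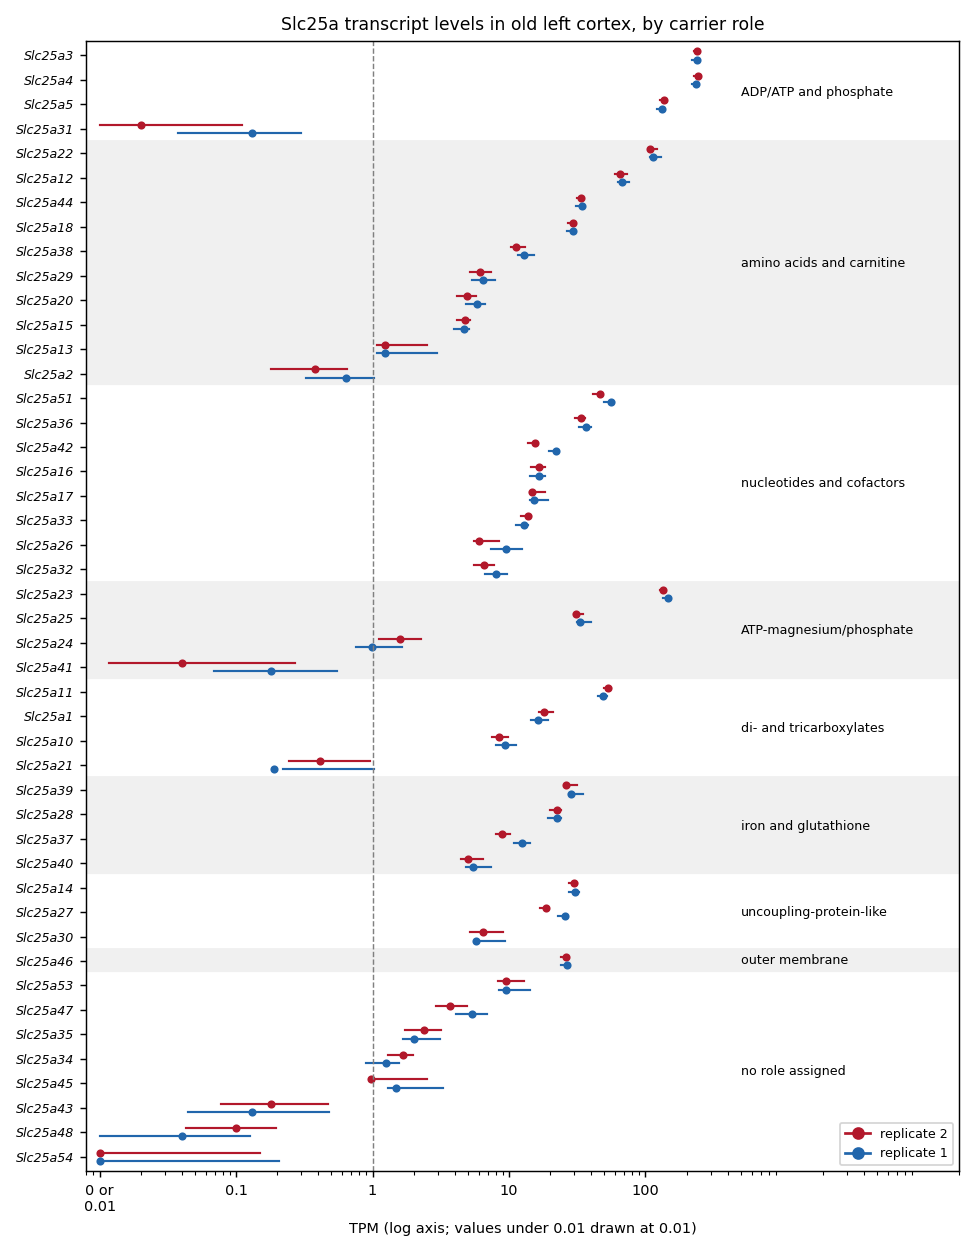
TPM of 46 Slc25a genes on a log axis, grouped by carrier role, with replicate 2 and replicate 1 as points and the deposited credibility intervals as bars; the dashed line marks 1 TPM. Slc25a4, at 241 TPM in replicate 2 and 235 TPM in replicate 1, and Slc25a3 lie highest, and Slc25a54 is listed at 0 in both libraries.

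The carriers that supply ATP synthesis led the family. Slc25a4, the ADP/ATP carrier of heart, muscle and brain, is at chr8:46206797-46211284, and Slc25a3, which brings in the phosphate for ATP synthesis, at chr10:91116574-91124059. Slc25a4 had 241 TPM in replicate 2 and 235 TPM in replicate 1, and Slc25a3 had 239.7 and 238 TPM. Their intervals overlapped, so that neither was above the other, and they ranked 229 and 228 among nuclear protein-coding genes by mean TPM. Slc25a5 (chrX:36795651-36798807), the ADP/ATP carrier of most proliferating and many adult tissues, had 136 TPM in replicate 2 and 132 TPM in replicate 1. Slc25a4 was therefore 1.78-fold above Slc25a5 (log2 ratio of TPM 0.83 ± 0.0047, SD, n = 2), with intervals apart in both libraries. The remaining ADP/ATP carrier, Slc25a31, is known from testis and was listed at 0.02 TPM in replicate 2 and 0.13 TPM in replicate 1, from 1 and 4 counts. The 3 testis markers examined, Prm1, Tnp1 and Acrv1, were at 0 in both libraries. These ADP/ATP and phosphate carriers together held 42.0% of the family's TPM in replicate 2 and 39.8% in replicate 1.

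The carriers that exchange ATP-magnesium for phosphate, and so set the size of the matrix adenine nucleotide pool, are calcium-regulated except for the short form Slc25a41; they were dominated by Slc25a23 (chr17:57043711-57059863). Slc25a23 had 135 TPM in replicate 2 and 146 TPM in replicate 1. Slc25a25 had 31.0 and 33.0 TPM, Slc25a24 1.59 and 0.99 TPM, and Slc25a41 0.04 and 0.18 TPM. Slc25a23 was 4.38-fold above Slc25a25 (log2 2.13 ± 0.02) and 111-fold above Slc25a24 (log2 6.79 ± 0.56, SD, n = 2), with intervals apart in both libraries for each pair. The ratio to Slc25a24 is the less precise, since that gene had 85 and 49 counts. Slc25a41 had 1 and 3 counts, and no fold was calculated for it.

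Amino acid carriers held 18.1% of the family's TPM in replicate 2 and 18.3% in replicate 1, together with the carnitine carrier. The mitochondrial glutamate carrier Slc25a22 (chr7:141429744-141437892) had 108 TPM in replicate 2 and 114 TPM in replicate 1. Its relative Slc25a18, known in brain mainly from astrocytes, had 29.5 and 29.6 TPM. Slc25a22 was 3.75-fold above Slc25a18 (log2 1.91 ± 0.05, SD, n = 2, and 2.12 in the second quantification). In bulk tissue, fewer cells of a type and less RNA per cell cannot be told apart, and this ratio holds for the tissue as a whole. The 5 neuron markers summed to 2396 TPM in replicate 2 and 2520 TPM in replicate 1, and the 5 astrocyte markers to 812 and 896 TPM. Snap25 made up most of the first sum (1409 and 1459 TPM) and Slc1a2 most of the second (655 and 740 TPM). The medians were 188 and 194 TPM for the neuron markers and 42.0 and 41.7 TPM for the astrocyte markers. Neither sums nor medians measure the share of cells.

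The aspartate-glutamate carriers, which form part of the malate-aspartate shuttle, differed most among the pairs in which both genes were detected. Slc25a12 (chr2:71271063-71367749), the form known from brain and muscle, had 65.2 TPM in replicate 2 and 67.8 TPM in replicate 1. Slc25a13, the form known from liver, had 1.23 and 1.24 TPM, from 62 and 46 counts. The ratio was 53.4-fold (log2 5.74 ± 0.03, SD, n = 2), and it stood at log2 5.21 in the second quantification. Slc25a11, the oxoglutarate-malate carrier that completes the shuttle, had 53.2 and 49.2 TPM. Slc25a12 stood above it, with the deposited intervals apart in both libraries.

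Other amino acid carriers were lower. Slc25a44, which carries branched-chain amino acids, had 33.9 TPM in replicate 2 and 34.1 TPM in replicate 1. Slc25a38, a glycine carrier needed for heme synthesis, had 11.2 and 12.9 TPM. The ornithine carrier Slc25a15 of the urea cycle had 4.79 and 4.70 TPM against 0.38 and 0.64 TPM of its relative Slc25a2, a 9.44-fold ratio (log2 3.24 ± 0.54, SD, n = 2) that rests on 10 and 12 counts of Slc25a2. The carnitine-acylcarnitine carrier Slc25a20, which brings fatty acids in for oxidation, had 4.96 and 5.87 TPM, and Slc25a29, a carrier of basic amino acids, had 6.15 and 6.47 TPM. That last pair was not called different: the log2 ratio of Slc25a20 over Slc25a29 was -0.22 ± 0.12 (SD, n = 2), and the intervals overlapped.

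Di- and tricarboxylate carriers held 5.45% of the family's TPM in replicate 2 and 4.94% in replicate 1, most of it in Slc25a11. Slc25a10, the dicarboxylate carrier, had 8.45 and 9.29 TPM, so that Slc25a11 stood 5.77-fold above it (log2 2.53 ± 0.18, SD, n = 2). Slc25a1, the citrate carrier that exports citrate for lipid synthesis, had 18.0 and 16.3 TPM. Slc25a21, the oxodicarboxylate carrier, was not detected, at 0.41 and 0.19 TPM. Slc25a11 shares 189 exon bases with the gene Rnf167 on the opposite strand, and the sources used here do not say whether strand was used in counting, so a part of its reads is uncertain.

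All 9 carriers of nucleotides and cofactors were detected. Slc25a51, the carrier of NAD, led with 46.4 TPM in replicate 2 and 56.2 TPM in replicate 1. Its relative Slc25a53, for which no role is assigned here, had 9.44 and 9.51 TPM, a 5.38-fold ratio (log2 2.43 ± 0.19, SD, n = 2). The pyrimidine nucleotide carriers Slc25a36 and Slc25a33 had 33.5 and 36.9 TPM and 13.7 and 13.0 TPM, in replicates 2 and 1 each. Slc25a36 was 2.64-fold above Slc25a33 (log2 1.40 ± 0.16, SD, n = 2). Slc25a16 and Slc25a42, both linked to coenzyme A, had 16.6 and 16.6 TPM and 15.5 and 22.1 TPM; that pair was not called, since the intervals overlapped in replicate 2 (log2 ratio -0.16 ± 0.36, SD, n = 2). Further members of this role were Slc25a17, which carries cofactors into peroxisomes, Slc25a32, a carrier of folate and FAD, and Slc25a26, the carrier of S-adenosylmethionine. They lay between 5.99 and 15.3 TPM.

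Among carriers of iron and glutathione, Slc25a28 and Slc25a39 stood above their relatives. Slc25a28 (mitoferrin 2), the iron carrier of most tissues, had 22.4 TPM in replicate 2 and 22.3 TPM in replicate 1. Slc25a37 (mitoferrin 1), the iron carrier best known from erythroid cells, had 8.94 and 12.4 TPM. Slc25a28 was 2.13-fold above Slc25a37 (log2 1.09 ± 0.33, SD, n = 2). Erythroid RNA was measurable: the 7 erythroid markers summed to 447 and 460 TPM, of which globins made up most, and 5 of the 7 were detected. Alas2, the erythroid enzyme of heme synthesis, had 1.63 and 1.61 TPM, and the part of red cells in the Slc25a37 level was not tested. The glutathione carrier Slc25a39 had 26.1 and 28.6 TPM and its relative Slc25a40 had 5.02 and 5.43 TPM, a 5.22-fold ratio (log2 2.38 ± 0.01, SD, n = 2). That ratio was log2 2.79 in the second quantification.

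The uncoupling-protein-like members, which resemble Ucp1 in sequence and of which Slc25a14 and Slc25a27 are known from brain, were all detected. Slc25a14 had 30.1 TPM in replicate 2 and 30.7 TPM in replicate 1, Slc25a27 had 18.6 and 25.6 TPM, and Slc25a30 had 6.43 and 5.77 TPM. Slc25a14 exceeded Slc25a27 by 1.39-fold, the only pair in which the gene named second was called higher (log2 ratio of Slc25a27 over Slc25a14 -0.48 ± 0.31, SD, n = 2). It exceeded Slc25a30 by 4.98-fold (log2 2.32 ± 0.13). Ucp2, outside the rule, had 19.5 and 21.9 TPM, while Ucp1, the uncoupling protein of brown fat, had 0 and 0.04 TPM. Slc25a46, an outer membrane protein with a part in mitochondrial shape, had 26.0 and 26.6 TPM.

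Of the 8 members with no role assigned here, 4 were detected. They were Slc25a53, Slc25a47, Slc25a35 and Slc25a34, at 9.51 TPM or less. Slc25a47 had 3.70 TPM in replicate 2 and 5.35 TPM in replicate 1, mostly on transcripts not annotated as protein-coding. Its protein-coding transcripts were each below the threshold: Slc25a47-201 had 0.39 and 0.45 TPM, and Slc25a47-202 had 0.11 and 0 TPM. Slc25a45 fell on either side of the threshold with 0.97 TPM in replicate 2 and 1.49 TPM in replicate 1, as did Slc25a24. Slc25a43 and Slc25a48 stayed at 0.18 TPM or less. Slc25a54 had 0 counts in both libraries, which at 3 counts allows up to 1.0e-05% of annotated-gene counts in replicate 2 and 1.3e-05% in replicate 1, for counting error only. Slc25a35 is uncertain, because 1151 of its exon bases (31.3%) overlap Rangrf on the opposite strand.

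In the order of all 47 levels, most neighbours could not be ranked. Of the 46 steps from one member to the next, 39 had deposited intervals that overlapped in at least 1 library and 7 had intervals apart in both. The clear steps came after Slc25a4, Slc25a22, Slc25a12, Slc25a11, Slc25a27, Slc25a42 and Slc25a45. The step after Slc25a42 was apart in opposite directions in the 2 libraries and therefore sets no order. Across the 16 pairs of relatives chosen for comparison, 14 were called different and 2 were not.

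**Figure D2:**
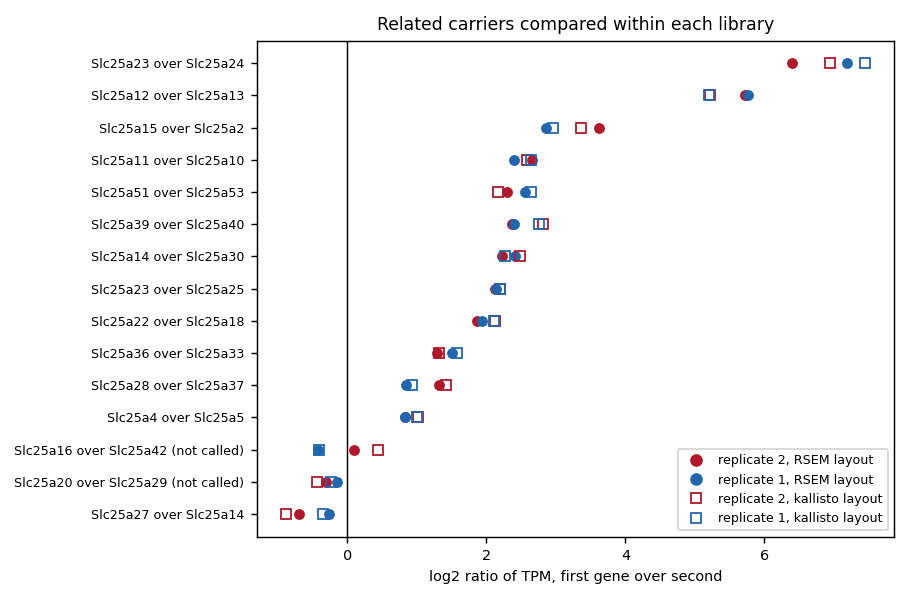
Log2 ratio of TPM, first gene over second, for 15 pairs of related carriers in replicate 2 and replicate 1, from the RSEM-layout table (filled) and the kallisto-layout table (open). All 4 points of every called pair lie on the same side of 0; Slc25a16 over Slc25a42 lies on both sides; the pair of Slc25a4 and Slc25a31 is left out because Slc25a31 had 1 and 4 counts.

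The TPM of a gene sums over its annotated transcripts, and the members had 256. Of 35 detected members with at least 2 transcripts, 29 had the same leading transcript in both libraries. The second quantification also gave 29, and 24 had a single leading transcript in both libraries of both tables. For 22 of those 24 it was protein-coding, and the exceptions were Slc25a12 and Slc25a37. The leading transcript held a median of 76.3% of its gene's TPM in replicate 2 and 74.7% in replicate 1.

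In Slc25a12 the leading transcript was Slc25a12-207, annotated as a target of nonsense-mediated decay. It held 66.2% of the gene's TPM in replicate 2 and 65.4% in replicate 1, and 49.5% and 50.2% in the second quantification. The full coding transcript Slc25a12-206 held 13.6% and 13.5%, and 14.2% and 15.0% in the second quantification. Slc25a12-207 lacks the fourth exon of Slc25a12-206, chr2:71333605-71333720 on the minus strand, whose 116 bases leave a remainder of 2 when divided by 3, so that skipping it changes the reading frame. It is shown because its absence is the coding difference between the transcripts.
Slc25a12 skipped exon: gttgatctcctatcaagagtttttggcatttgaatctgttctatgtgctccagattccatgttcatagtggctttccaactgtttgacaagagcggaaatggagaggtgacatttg

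The same transcripts also differ at their 3′ ends: the last exon has 664 bases in Slc25a12-207 and 4291 bases in Slc25a12-206. Whether the reads assigned to Slc25a12-207 came from the skipped exon or from a shorter 3′ end cannot be told apart in the deposited tables. In expected counts, which are not divided by length, Slc25a12-207 had 2048 and 1511 and Slc25a12-206 had 1147 and 849 in replicates 2 and 1. The level of coding Slc25a12 messenger RNA is therefore uncertain, and with it the ratio to Slc25a13.

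In Slc25a37 the leading transcript keeps an intron. Slc25a37-203, annotated as a retained intron, held 60.4% of the gene's TPM in replicate 2 and 51.0% in replicate 1, and 74.4% and 66.8% in the second quantification. The coding transcript Slc25a37-201 held 26.7% and 27.2%, and 8.56% and 8.70% in the second quantification. The kept intron, chr14:69247638-69249393 on the minus strand, is 1756 bases long. Its ends, where the kept sequence meets the flanking exons, are shown with exon bases in capitals and intron bases in lower case; it starts with gt and ends with ag like most introns.
Slc25a37 intron 2 start: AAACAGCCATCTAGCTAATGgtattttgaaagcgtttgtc
Slc25a37 intron 2 end: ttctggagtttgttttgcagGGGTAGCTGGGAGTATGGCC

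Of the alternative exons of Slc25a3 printed above, the downstream one was used. Transcripts with it held 98.8% in replicate 2 and 98.4% in replicate 1 of the TPM on transcripts with either exon (98.6% mean). The second quantification gave 88.6% and 88.0%. The direction was the same in both tables, and the size of the minority form was not: 1.24% and 1.58% in the first table, 11.4% and 12.1% in the second. Most of the minority form in the second table fell on Slc25a3-202, a target of nonsense-mediated decay, with 9.51% and 8.24% of the gene's TPM. The coding heart and muscle form Slc25a3-206 held 1.63% and 3.36% there and 1.17% and 0.73% in the first table. Of the 3 muscle markers, Ckm, the muscle creatine kinase, had 0 and 0.06 TPM, Myh1 had 0.16 and 0.19 TPM, and Acta1 had 4.38 and 4.50 TPM. The tables also placed the main form differently, on Slc25a3-201 in the first (85.7% and 77.3%) and on Slc25a3-203 in the second (64.6% and 61.3%). Both carry the downstream exon.

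**Figure D3:**
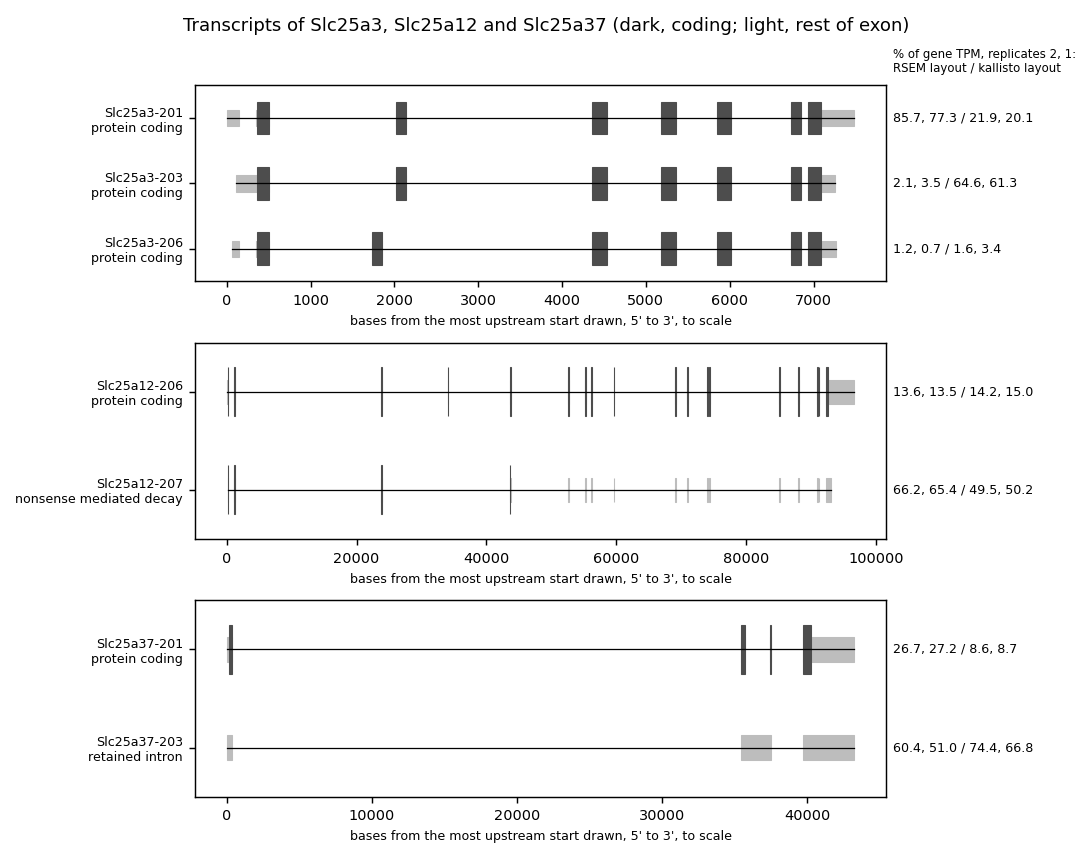
Exons of selected transcripts of Slc25a3, Slc25a12 and Slc25a37, to scale in bases from the most upstream start drawn, with coding parts tall and dark and the rest of each exon low and light; numbers at the right are percent of the gene's TPM in replicates 2 and 1, RSEM-layout table before the slash and kallisto-layout table after it. Slc25a12-207 lacks the fourth exon and held 66.2% and 65.4%, and Slc25a37-203 keeps an intron and held 60.4% and 51.0%.

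Other members also had much of their TPM on transcripts not annotated as protein-coding, as did many genes outside the family. Among 31 detected members with a mean count of 100 or more and such a transcript, 7 held 30% or more there in both libraries, against 24.8% of 9351 nuclear protein-coding genes chosen the same way. They were Slc25a12, Slc25a53, Slc25a37, Slc25a40, Slc25a28, Slc25a36 and Slc25a10. The list differs in the second quantification. There Slc25a28 had 44.3% in replicate 2 but 26.6% in replicate 1, and members such as Slc25a14 (32.3% and 32.4%) also reached 30%. The pair ratios given above for the 7 members listed rest on gene totals, and ratios of coding transcripts alone were not calculated. In the RSEM-layout table the shares were as follows. The share not annotated as protein-coding was 86.4% and 86.5% for Slc25a12, 75.9% and 79.1% for Slc25a53, and 73.3% and 72.8% for Slc25a37. Several of the highest-expressed members were at the other end: Slc25a5 had 1.03% and 1.49%, Slc25a23 3.02% and 5.61%, and Slc25a4 6.64% and 8.46%. The second quantification gave Slc25a23 more, at 14.6% and 18.2%, with Slc25a5 at 1.63% and 2.37% and Slc25a4 at 1.44% and 2.32%. The share was lower in replicate 2 than in replicate 1 for 23 of the 31 members, against 71.4% of the same 9351 genes, and in the second quantification for 22, against 68.3%. Slc25a26 differed most in this direction, with 23.4% in replicate 2 and 53.1% in replicate 1, and Slc25a30 moved the other way with 43.4% and 17.2%. For Slc25a30 the second quantification showed no such gap, with 37.1% and 37.3%.

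**Figure D4:**
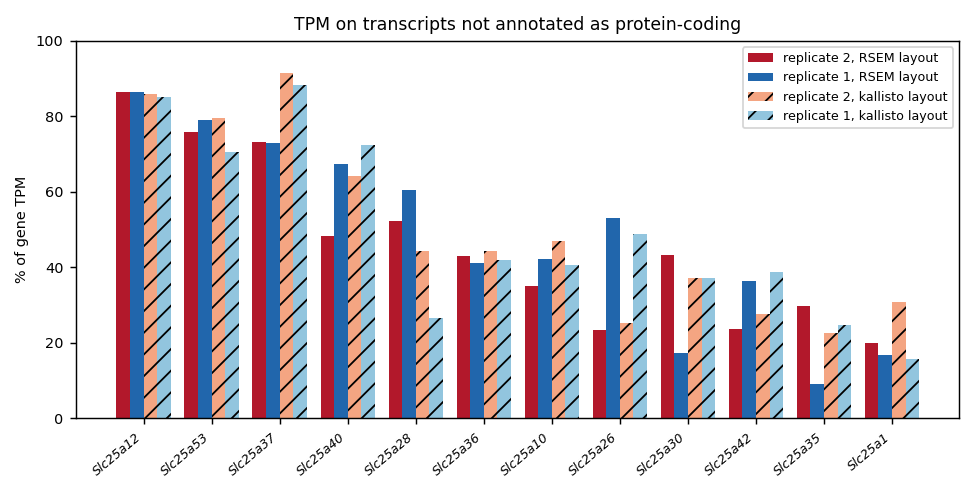
Percent of gene TPM on transcripts not annotated as protein-coding, for 12 members with high mean shares, in replicate 2 and replicate 1 from the RSEM-layout table (plain) and the kallisto-layout table (hatched). Slc25a12 lies between 85.0% and 86.5% in all 4 bars, while Slc25a26 stands at 23.4% in replicate 2 and 53.1% in replicate 1.

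The libraries can be set against each other only as replicates. They held 29897545 expected counts over annotated genes in replicate 2 and 22827996 in replicate 1, and each ratio below is of rounded expected counts after TMM scaling, replicate 2 over replicate 1, with a 95% exact counting interval. With 1 library on each side there is no replicate check and no p-value. Slc17a7, the vesicular glutamate transporter of cortical excitatory neurons, had 562 TPM in replicate 2 and 581 TPM in replicate 1. Striatum markers were detected as well. All 10 were higher in replicate 2, with summed levels of 389.5 TPM in replicate 2 and 181 TPM in replicate 1. The nuclear RNAs Malat1 and Meg3 were lower in replicate 2 (log2 ratios -0.67 and -0.74). Whether either bears on a member's ratio was not tested.

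The carriers differed little between the libraries. Of the 38 detected members, 12 had an interval above 0, against a background of 26.3% of 12868 detected nuclear protein-coding genes, and 3 had an interval below 0, against 13.3%. The other 23 had intervals that held 0. The median log2 ratio was 0.09 over detected members and 0.05 over all detected nuclear protein-coding genes. The ratio was within 0.3 of 0 on the log2 scale for 37 of the 38, and for 86.4% of the background. A log2 ratio of 0.3 or more was reached by 7.58% of the background and by Slc25a34 alone among the members (0.54, from 89 and 48 counts, interval 0.03 to 1.08). A ratio of -0.3 or less was found in 5.99% of the background and in no detected member.

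The members above 0 included several with high counts, whose intervals are narrow. Slc25a23, with 8446 counts in replicate 2 and 6457 in replicate 1, was not among them. Its log2 ratio was 0.04 (interval -0.0031 to 0.09). Slc25a4, with 8892 counts in replicate 2 against 6194 in replicate 1, had a log2 ratio of 0.18 (interval 0.13 to 0.23). Slc25a5 stood at 0.18, Slc25a3 at 0.16 and Slc25a22 at 0.13. Slc25a11 had 1618 and 1077 counts and a ratio of 0.24 (0.13 to 0.36), and Slc25a1 stood at 0.26. All of these ratios lie below 0.3, and Slc25a5, Slc25a3, Slc25a22 and Slc25a1 lost the call under at least 1 other setting. In deposited TPM, Slc25a22 was lower in replicate 2, at 108 against 114 TPM. Slc25a12, Slc25a44 and Slc25a46, also above 0 in scaled counts, were likewise lower in TPM there. The deposited intervals of each overlapped between the libraries. The other members above 0 were higher in replicate 2 by TPM as well.

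The members below 0 were Slc25a27, Slc25a42 and Slc25a37. Slc25a42 was represented by 864 counts in replicate 2 and by 832 in replicate 1, and its log2 ratio was -0.29 (-0.43 to -0.15). Slc25a37 had 904 and 834 counts and a ratio of -0.23 (-0.36 to -0.09), and Slc25a27 had 934 and 854 counts and a ratio of -0.21 (-0.35 to -0.08). The raw counts were higher in replicate 2 by less than its greater depth. Under 7 ways of scaling or counting, 5 of the 15 called members kept their call in each: Slc25a4 and Slc25a11 above 0, and Slc25a27, Slc25a37 and Slc25a42 below. The sizes of both ratios above 0 were smaller with spike-in totals, at 0.05 for Slc25a4 and 0.12 for Slc25a11. The share of background genes that kept their call in every setting was not calculated. Over the same settings, the background share above 0 ran from 6.91% to 35.2%, and the share below 0 from 11.4% to 31.5%. In both quantifications all 38 ratios had the same sign. Counting protein-coding transcripts alone set some members apart from their gene totals: the log2 ratio was 0.61 (0.19 to 1.05) for Slc25a40 and 0.34 (0.08 to 0.61) for Slc25a28, against -0.11 and 0.05 over all their transcripts. Others lay lower: Slc25a37 at -0.44 (-0.73 to -0.15), Slc25a30 at -0.34 (-0.60 to -0.09) and Slc25a36 at -0.18 (-0.28 to -0.08), against -0.23, -0.23 and -0.08 over all their transcripts. This count had its own TMM scaling, with a log2 size ratio of 0.43 against 0.34 over all transcripts. The larger size ratio lowers every log2 ratio, so a part of each lower value comes from scaling. The background median was 0.0047 in this count, against 0.05.

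**Figure D5:**
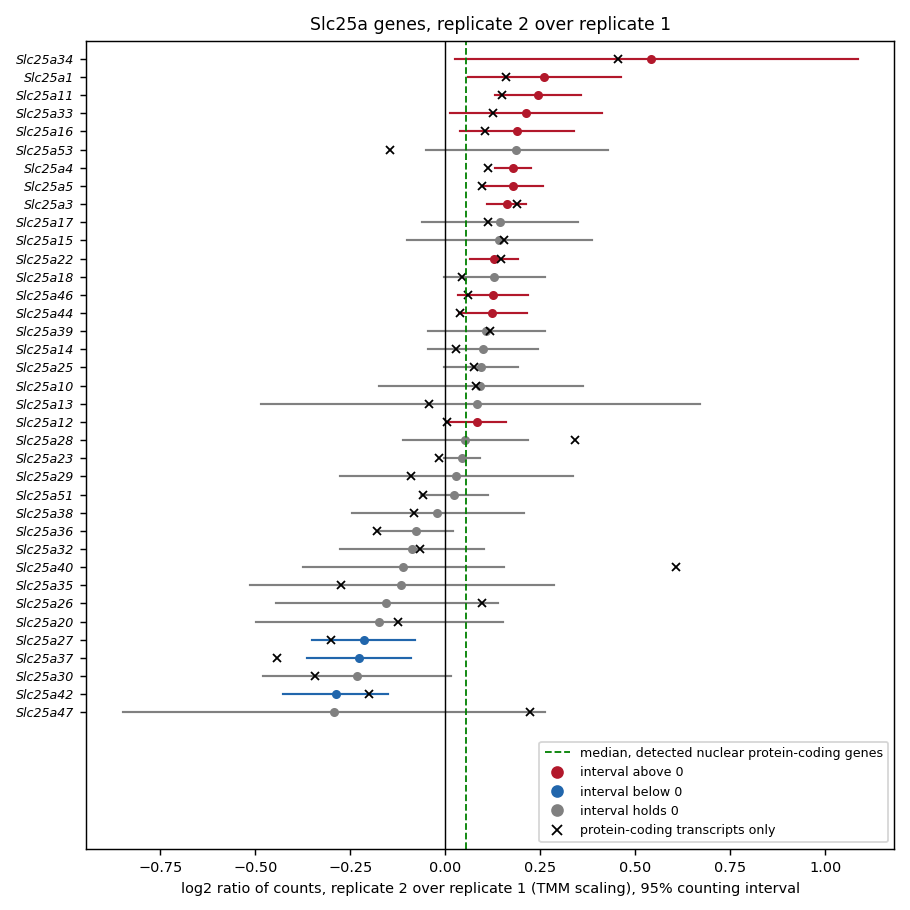
Log2 ratio of counts, replicate 2 over replicate 1 after TMM scaling, for 37 detected members, with 95% counting intervals; red intervals lie above 0, blue below, grey hold 0, crosses use protein-coding transcripts only, and the dashed line is the median of detected nuclear protein-coding genes at 0.05. All points but that of Slc25a34 lie within 0.3 of 0, while 5 crosses lie farther out: Slc25a40 at 0.61, Slc25a34 at 0.45, Slc25a28 at 0.34, Slc25a30 at -0.34 and Slc25a37 at -0.44. The crosses have their own TMM scaling.

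Other transport genes of the mitochondrial membranes give a scale for these levels. Of 36 such genes, 34 were detected, 15 were above 0 in replicate 2, 3 were below and 16 were neither, with a median log2 ratio of 0.09. Among all detected nuclear protein-coding genes, 26.3% were above 0 and 13.3% below, with a median of 0.05. Vdac1, the pore of the outer membrane, had 248 TPM in replicate 2 and 232 TPM in replicate 1, and Mtch1, a carrier-family protein of the outer membrane, had 265 and 237 TPM. Slc25a4 and Slc25a3 lay in the same range. Hk1, the hexokinase that docks on that pore, had 137 TPM in both libraries, near Slc25a5 and Slc25a23. Mpc1, a subunit of the pyruvate carrier, had 69.1 and 84.7 TPM, near Slc25a12. Timm22, which inserts carriers into the inner membrane, had 16.4 and 13.7 TPM, and Tomm70a, the outer membrane receptor for carrier precursors, had 47.6 and 42.0 TPM.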

How the data were processed

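Total RNA-seq of 2 libraries was analysed from tables the authors deposited. The RSEM-layout gene and transcript tables hold expected counts, TPM, posterior mean TPM, the bounds of its interval (recorded as a score in the deposited columns, since they have no fixed total) and the percent of each gene's TPM on each transcript, per the file headers; a kallisto-layout transcript table, called the second quantification, holds estimated counts and TPM and was summed per gene. Per the deposited file lists, mm10 and GENCODE M21 were used. The sources used here do not give the aligner, its version or the use of strand. Of 81881 gene rows, 55536 matched the annotation and 96 were spike-ins.

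Expected counts were rounded and scaled by TMM in edgeR 4.0.16 (factors 0.984 in replicate 2 and 1.02 in replicate 1; R 4.3.3; DESeq2 1.42.0 as an alternative). A prior of 0.5 was added for each ratio, and 95% Clopper-Pearson intervals cover counting error only, since reads are not independent molecules. The interval code was tested on simulated data. Pair ratios used TPM plus 0.01 and were called where deposited intervals were apart, in 1 direction, in both libraries. Coding sequences were aligned globally with Biopython 1.88. Members with a mean of 20 TPM or more and all members of pairs are given per library, except 1 member that is counted in the totals and not reported here. Others were named for a role, a call or a transcript pattern after their values were seen. The members and lists were chosen with earlier results of these data known. Reads were quantified on the reference genome, and any loss of CAST reads was not measured.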

Additional observations from a re-analysis of the deposited data

How the results depend on the processing

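Detected members numbered 36 at 2 TPM, 40 at 0.5 TPM, 40 by posterior mean TPM and 41 in the second quantification, and 39 with either library left out (39 to 39). The family's share of nuclear protein-coding TPM was 0.314% in the second quantification and 0.250% in expected counts, and 0.326 to 0.331% with either library left out. Members above 0 in replicate 2 numbered 2 with spike-in totals (6.91% of the background), 6 with library totals (18.0%) and 7 with protein-coding transcripts only (16.8%), an alternative added after seeing the data; members below 0 numbered 8 (31.5%), 5 (18.2%) and 5 (18.0%), and 5 (15.5%) with genes under a mean count of 10 left out. Spike-in totals turned Slc25a12 (log2 ratio -0.043) and Slc25a44 (-0.0017), and moved the background median to -0.07 and the members' median to -0.04; deposited TPM gave a members' median of -0.05. DESeq2 size factors changed no call. Called pairs numbered 14 to 15 with either library left out, and 12 to 13 when called by a mean log2 ratio over 3 times its SD, a rule added after seeing the data. Of the pair ratios under other settings, 68 differed from the main ratio by less than its SD and 12 by more. The SDs of the pair ratios cover the spread between libraries only. The Slc25a3 downstream exon, a comparison also added after seeing the data, held 88.3% in the second quantification. The cause of these shifts was not tested. No paired analysis was possible because there was 1 group. Depth limits the members with fewer than 100 counts per library, such as Slc25a13, Slc25a34, Slc25a47 and those not detected.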

Other observations

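The second quantification gave detected members a median of 1.53 times their TPM in the RSEM-layout table. Nuclear protein-coding genes held 75.0% of TPM in replicate 2 and 75.6% in replicate 1 there, against 44.4% and 46.6% in the RSEM-layout table, so that TPM levels compare within a table and not between them. Slc25a43 stood apart, with 1.21 TPM in replicate 2 and 2.12 TPM in replicate 1 in the second quantification and 0.18 and 0.13 TPM in the RSEM-layout table.

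Some members changed their leading transcript between the libraries. Slc25a40-201, protein-coding, held 39.7% of its gene in replicate 2 and 18.1% in replicate 1, where the retained-intron transcript Slc25a40-204 led with 27.2% (13.8% in replicate 2). The deposited TPM intervals of Slc25a40-201 and Slc25a40-204 overlapped in each library, so which of them led is not resolved. Slc25a26-201 led in both libraries, with 76.6% in replicate 2 and 46.9% in replicate 1. Slc25a40 and Slc25a26 each had fewer than 300 counts in each library.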
